A study of Homo sapiens with 2 samples.

Results

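The PAX5 binding sites described here are the 1616 peaks that lie on chromosomes 4, 13 and 18, out of 21361 in the whole list (7.57%). The rule took them by chromosome name alone and used no measured value, though it was set with earlier results of these data known. Chromosome 4 held 736 of them, chromosome 13 465 and chromosome 18 415. The sites were mapped in NALM6, an established human leukaemia line of precursor B-cells, by ChIP-seq, in which DNA bound by a protein is pulled down with an antibody and sequenced. The cells were untreated and had grown for 4 days in phenol red-free RPMI with 10% FBS and 2 mM glutamine. The study has 2 samples and no replicates, a ChIP with antibody ab15164 (Abcam), against PAX5, and an input control without antibody. The control's title also carries the name RXL, which no label explains. Every fold enrichment below depends on that control. With 1 sample of each kind no difference between samples can be tested, and all intervals cover counting error only.

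PAX5 is a transcription factor that binds DNA through a paired domain. It switches on genes of the B-cell programme, represses genes of other blood lineages, and is often altered in B-cell precursor leukaemia. Binding sites of such factors tend to gather at promoters and enhancers, which are themselves unevenly spread over a chromosome. Among the genes of these chromosomes, LEF1, BANK1 and RHOH on chromosome 4, FOXO1, FLT3 and RB1 on chromosome 13, and BCL2, TCF4 and KLHL14 on chromosome 18 have known roles in B-cells or leukaemia. Peak positions are on hg19, and no gene positions or genome sequence of that build were used here. Peaks are thus given by position only, without gene, exon or intron, and no sequence under a summit is shown.

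The name gene-poor held for all 3 chromosomes. The RefSeq table counts 770 protein-coding genes on chromosome 4, 338 on chromosome 13 and 270 on chromosome 18. These counts are on GRCh38.p14 and were divided by the hg19 distance from the first to the last peak summit. The result was 4.04 genes per Mb on chromosome 4, 3.54 on chromosome 13 and 3.47 on chromosome 18, the 3 lowest values of the 22 autosomes. The next in order was chromosome 8 with 4.89.

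Fewer PAX5 sites were found per Mb on these chromosomes than on most autosomes, though not in the order of their gene density. Chromosome 4 had 3.86 peaks per Mb (exact Poisson 95% interval 3.59 to 4.15), the lowest of the autosomes. Chromosome 13 followed with 4.87 (4.44 to 5.33). Chromosome 18 had 5.34 (4.84 to 5.88) and came after chromosome 5, which had 5.12 (4.80 to 5.46). The intervals of chromosomes 13, 18 and 5 overlapped, so their order was not resolved, while that of chromosome 4 lay below all of them. Together the 3 chromosomes had 4.44 peaks per Mb (4.23 to 4.66), compared with 7.97 (7.86 to 8.09) over the 19 other autosomes. Peaks lie in groups and are not independent, so these intervals are narrower than the true uncertainty.

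Counted per gene, the order was different. Chromosome 18 had 1.54 peaks per protein-coding gene, chromosome 13 1.38 and chromosome 4 0.956. The 19 other autosomes together had 1.09, with a range from 0.765 on chromosome 11 to 1.63 on chromosome 22. Chromosome 18 thus had the second highest ratio of all autosomes and chromosome 4 one of the lower ones, although their gene densities were similar. Chromosomes 10, 21 and 20 followed chromosome 18 closely with 1.48, 1.46 and 1.45. No intervals were calculated for these ratios, so the rank of chromosome 18 was not resolved.

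**Figure D1:**
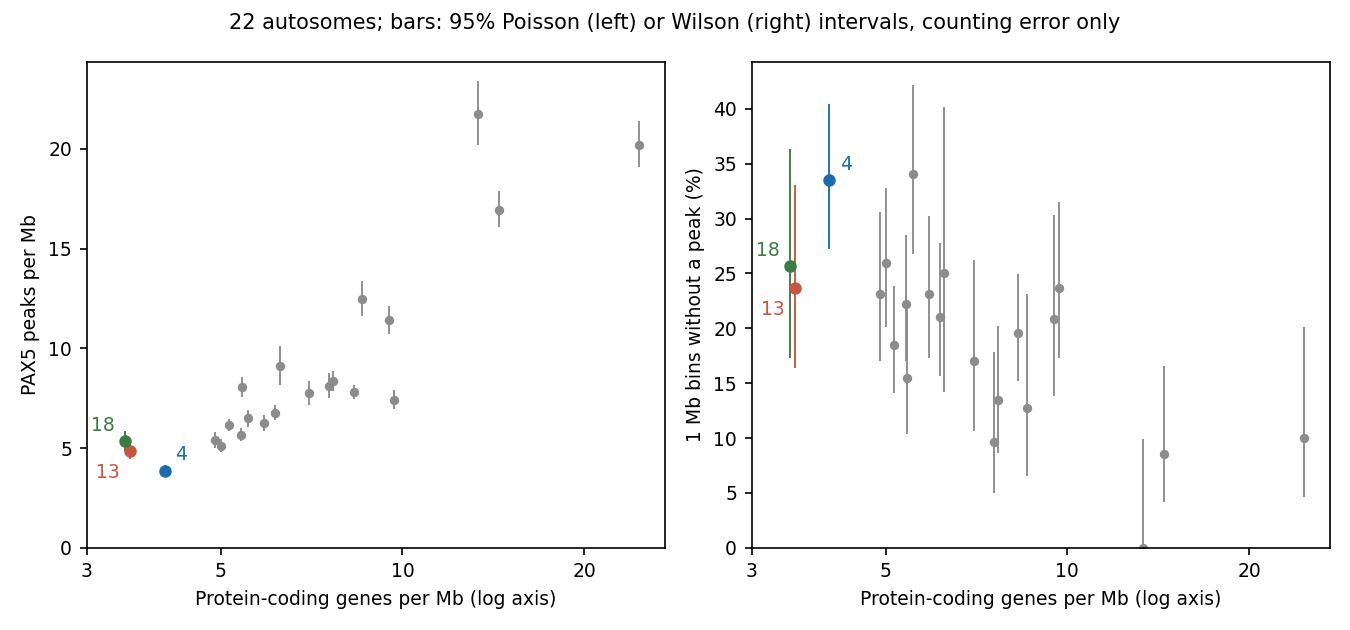
Peak density (left, peaks per Mb) and the percentage of 1 Mb bins without a peak (right) against protein-coding genes per Mb on a log axis, one point per autosome, with 95% Poisson or Wilson intervals. Chromosomes 4, 13 and 18 are coloured and sit at the left edge, with 3.86, 4.87 and 5.34 peaks per Mb and 33.5%, 23.7% and 25.6% of bins empty.

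The sites were then placed in bins of 1 Mb, from the bin of the first summit to that of the last. Chromosome 4 covered 191 bins, of which 64 (33.5%, Wilson 95% interval 27.2 to 40.5) had no peak. Chromosome 13 had 23 empty bins of 97 (23.7%, 16.4 to 33.1) and chromosome 18 had 20 of 78 (25.6%, 17.3 to 36.3). Over the 19 other autosomes the share was 19.9% (18.3 to 21.5), from 0% on chromosome 22 to 34.04% on chromosome 9. Chromosome 9 had 6.49 peaks per Mb, more than any of the 3, but also the longest distance between neighbouring summits of any autosome, 32.9 Mb. Bins without mappable sequence count as empty here. The parts of peak number and of missing assembly in these shares were not tested. Chromosome 5, with a density between those of chromosomes 13 and 18, had 26.0% of its bins empty, and chromosome 8, with 5.39 peaks per Mb, had 23.1%. Their intervals, 20.1 to 32.8 and 17.0 to 30.6, overlapped those of chromosomes 13 and 18.

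A small number of bins held many of the peaks, as on the other autosomes. On chromosome 4, the 25 densest bins (13.1% of its bins) held at least 50% of the peaks. On chromosome 13 this took 14 bins (14.4%) and on chromosome 18 13 bins (16.7%). Over the 19 other autosomes the share was 16.2%, from 10% on chromosome 21 to 28.6% on chromosome 22. The shares of the 3 chromosomes lay near this value and within this range. The median bin held 2 peaks on chromosome 4, 3 on chromosome 13 and 3.5 on chromosome 18, against 5 over the other autosomes. Bins with 10 or more peaks numbered 21, 13 and 16 on chromosomes 4, 13 and 18, and held 45.8%, 49.2% and 58.6% of the peaks. On chromosome 5 the corresponding share was 55.03%.

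**Figure D2:**
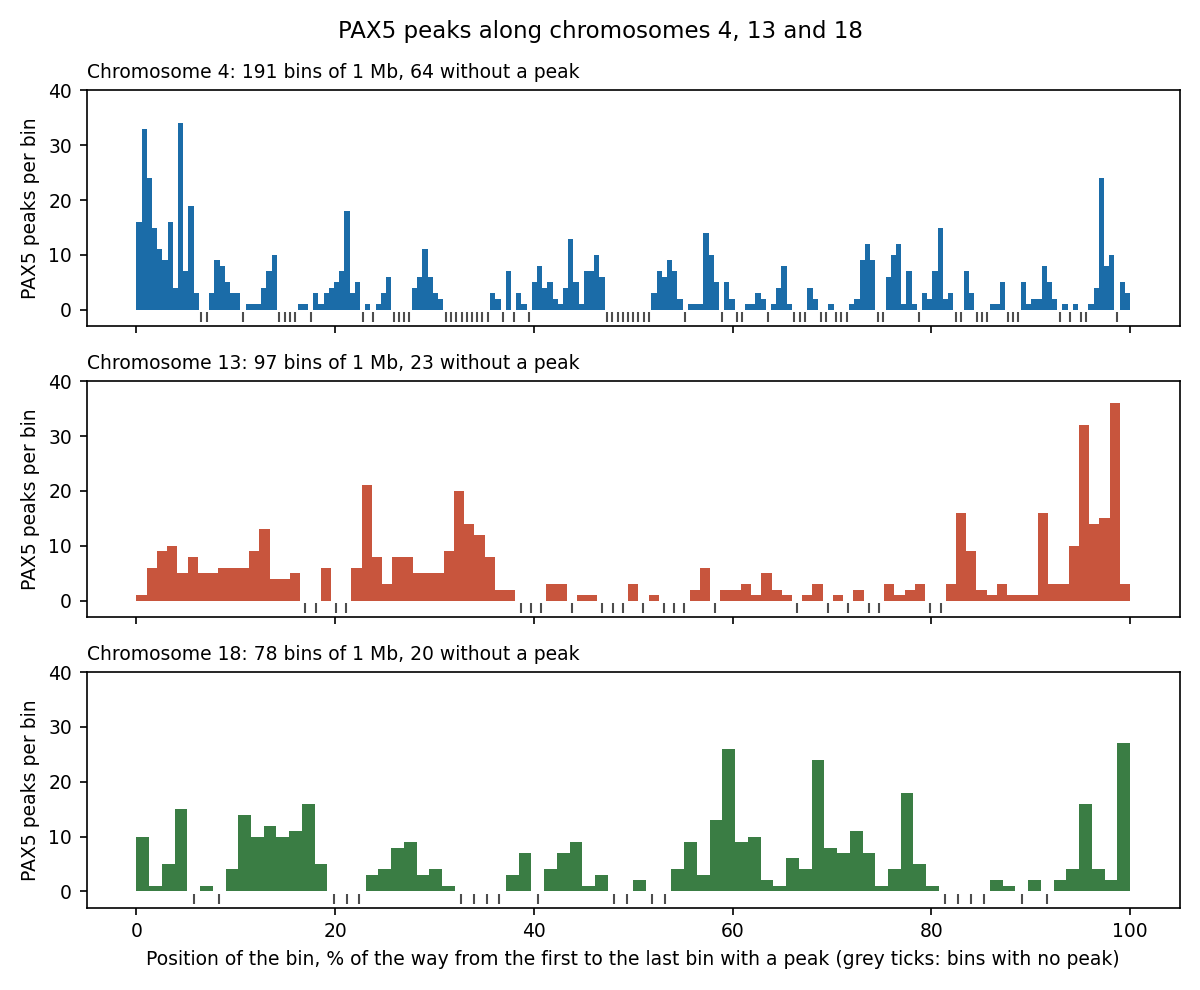
PAX5 peaks in each 1 Mb bin of chromosomes 4, 13 and 18, with the position of the bin as a percentage of the way from the first to the last bin with a peak, and grey ticks under bins with no peak. Chromosome 4 is crowded at its start, with bins of 33 and 34 peaks, chromosome 13 at its end, with bins of 32 and 36, and chromosome 18 has dense bins of 24 to 27 peaks in its second part and at its end.

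On chromosome 4 the densest bin, chr4:8000001-9000000, held 34 peaks, with between 26 and 171 reads at the summits and a median of 74. It was followed by chr4:1000001-2000000 with 33 peaks. Next came chr4:2000001-3000000 and chr4:185000001-186000000 with 24 each. The first of this pair had a median fold enrichment of 4.95 and the second one of 3.78. The fold enrichment deposited by the authors compares the reads over a summit, scaled to the depth of the control, with the local control background.

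The start of chromosome 4 stood out in this layout. Its first 12 Mb, a limit drawn after the counts were seen, held 191 of the 736 peaks (26.0%), or 15.9 per Mb, with no empty bin among 12. The remaining 179 Mb held 545 peaks, or 3.04 per Mb, and all 64 empty bins. The median fold was 4.21 in the first stretch and 3.72 in the rest, with medians of 62 and 60 reads at the summit. Of the 10 chromosome 4 sites with a fold of at least 10, 6 lay in the first 12 Mb.

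On chromosome 13 the 2 densest bins lay toward the end of the long arm. The bin chr13:114000001-115000000 held 36 peaks, the most of any bin on the 3 chromosomes, with summits of 31 to 218 reads. The bin chr13:111000001-112000000 held 32, with folds from 2.40 to 5.79. No site of this crowded bin reached a fold of 10, which only 1.72% of all peaks in the list did. The bin chr13:41000001-42000000 held 21 peaks and the site with the most reads of the 3 chromosomes, 301. The 5 Mb from 110000001 to 115000000, next to the last bin, held 107 of the 465 peaks (23.01%). The 36 Mb from 19000001 to 55000000 held 242 (52.0%) and had 4 empty bins of 36. Between 55000001 and 99000000, a stretch of 44 Mb, only 57 peaks (12.3%) were called, 1.30 per Mb, and 19 of its 44 bins were empty. The median fold in this sparse stretch was 4.17, close to the 4.12 of the 5 Mb from 110000001. These limits too were drawn after the counts were seen.

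On chromosome 18 the last bin, chr18:77000001-78000000, led with 27 peaks. It was followed by chr18:46000001-47000000 with 26 and chr18:53000001-54000000 with 24. The 20 Mb from 43000001 to 63000000, limits also drawn after the counts were seen, held 169 of the 415 peaks (40.7%) and had no empty bin. The next 11 Mb held 11 peaks in all.

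Long stretches without any peak separated these regions. A stretch is given here as the distance between neighbouring summits. Chromosome 4 had 19 stretches of at least 2 Mb, which together made up 73.2 Mb or 38.4% of its span. Chromosome 13 had 10, adding up to 28.2 Mb (29.6%), and chromosome 18 had 8, adding up to 26.5 Mb (34.1%). Over the other autosomes they made up 22.5% of the span, from 0% on chromosome 22 to 38.4% on chromosome 21, and 27.5% on chromosome 5. Stretches of missing assembly, such as those at centromeres, hold no mappable sequence and count as peak-free here. Their part in these sums was not tested.

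The longest stretch of chromosome 4 ran for 9.62 Mb from the summit at 58721134 to the one at 68343199. Another, from 89563012 to 99182123, was nearly as long (9.62 Mb). The third, from 133187678 to 137953590, measured 4.77 Mb. On chromosome 13 the longest stretches were shorter, with 3.96 Mb from 55567681 to 59527982, 3.65 Mb from 63811357 to 67461436 and 3.46 Mb from 69839275 to 73301521. All of these lay in the sparse middle of the long arm. On chromosome 18 they measured 5.30 Mb from 62380709 to 67682688, 5.03 Mb from 24492011 to 29523426 and 3.91 Mb from 14748114 to 18660134. The median fold of the peaks that bound the stretches was 4.19 on chromosome 4, 4.89 on chromosome 13 and 4.03 on chromosome 18, a peak between adjoining stretches being counted for each. The medians over all peaks of these chromosomes were 3.83, 3.92 and 4.01. The edge median of chromosome 13 rests on 20 values, from 2.68 to 9.19. No interval was calculated for it, so its difference from 3.92 was not resolved.

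Within the occupied regions, sites were grouped in islands. An island was defined as at least 5 peaks in which no neighbouring summits were more than 100 kb apart. By this definition, 66.4% of all autosomal peaks lay in islands. On chromosome 4, 349 of 736 peaks (47.4%) lay in 43 islands, on chromosome 13 237 of 465 (51.0%) in 29, and on chromosome 18 235 of 415 (56.6%) in 28. Together 821 peaks (50.8%) occupied 100 islands that spanned 15.9 Mb, or 4.38% of the 364 Mb between first and last summits. The shares were below that of all autosomes, and chromosomes 5 (55.2%) and 8 (59.8%), with similar densities, were also below it. The limit of 100 kb was the same at every density, and the part of density in these shares was not tested.

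At a shorter distance the difference from other autosomes was small. On chromosome 4, 48.0% of the peaks had another summit within 10 kb, on chromosome 13 48.0% and on chromosome 18 50.4%. The other autosomes together had 52.2%, with a range from 41.0% on chromosome 8 to 64.6% on chromosome 19. All 3 values lay within this range. Chromosome 18, with a density near those of chromosomes 8 and 5, had 50.4%, against 41.0% and 47.5%. No intervals were calculated for these shares, so the differences were not resolved. The median distance between neighbours was 50.2 kb on chromosome 4, 41.4 kb on chromosome 13 and 31.8 kb on chromosome 18.

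The island with the most peaks on chromosome 4 was chr4:8036926-8604951, 568 kb long, with 32 peaks. Its summits had between 26 and 171 reads with a median of 80.5, and its median fold was 4.45. The island chr4:862875-1404471 had 27 peaks over 542 kb, with a median of 60 reads and no site that reached a fold of 10. Over the whole list 1.72% of peaks reached it. The island chr4:185151217-185425823, near the far end, had 18 peaks in 275 kb and a median fold of 3.78. A fold of at least 5 was reached by 11 of 32, 11 of 27 and 2 of 18 sites in these islands, and by 25% of the whole list. The first island also held 1 site with a fold of at least 10 (10.2).

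On chromosome 13 the largest island was chr13:113825459-114182776, with 23 peaks in 357 kb and between 39 and 218 reads. Neighbouring summits in it were a median of 3.52 kb apart. The second, chr13:30887415-31049160, had 15 peaks in 162 kb with a median of 76 reads. The third, chr13:40950593-41239242, had 14 peaks in 289 kb, and its summits ranged from 34 to 301 reads. Of the 9 islands named here it was the only one with a pair of sites above a fold of 10.

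On chromosome 18 the island chr18:46311444-46710656 had 22 peaks in 399 kb. Its reads ran from 36 to 216 with a median of 72.5. The island chr18:52987992-53325162 had 17 peaks in 337 kb and a median fold of 3.35, the lowest of the 9 islands named. The island chr18:77455180-77748742 had 16 peaks in 294 kb and ended with the last peak of the chromosome. The 3 largest islands held 10.5% of the peaks of chromosome 4, 11.2% of chromosome 13 and 13.3% of chromosome 18. The largest single islands held 4.35%, 4.95% and 5.30%.

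**Figure D3:**
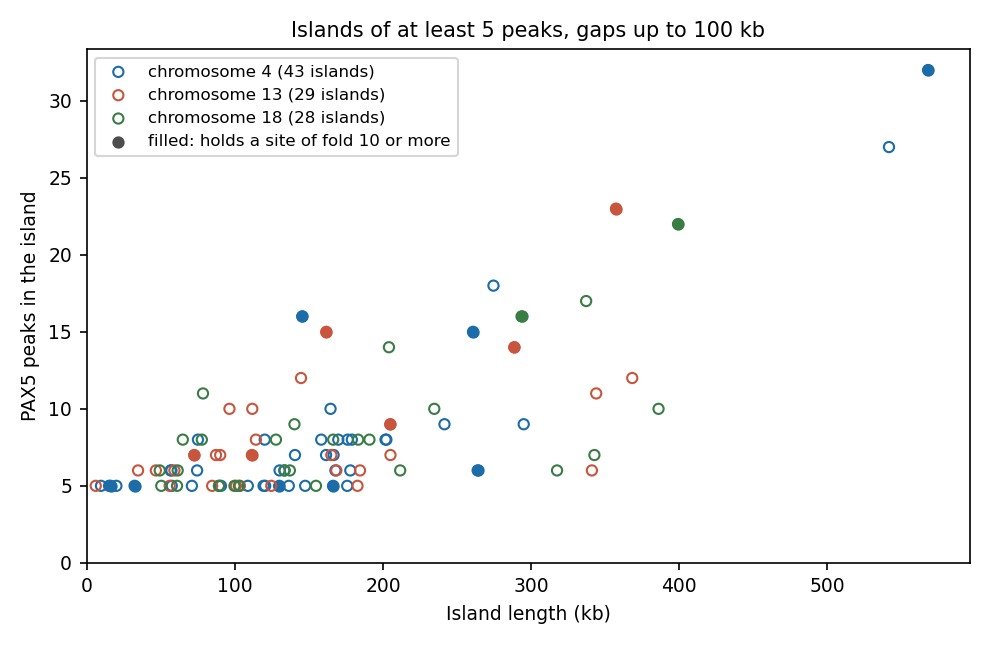
Number of peaks in each of the 100 islands against its length in kb, coloured by chromosome; filled points hold at least 1 site with a fold of 10 or more. Most islands have 5 to 10 peaks, and the island of 32 peaks over 568 kb on chromosome 4 is at the upper right.

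Typical width, pileup and fold were close to those of the other autosomes. The median peak was 370 bp wide on chromosome 4 (exact binomial 95% interval of the median 354 to 385), 381 bp on chromosome 13 (365 to 398) and 396 bp on chromosome 18 (367 to 411). The other autosomes together had 384 bp (381 to 388), and their single values ran from 372 to 406 bp. The median of chromosome 4 was just under this range, although its interval overlapped it.

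Pileup counts the extended ChIP reads that cover a summit, after scaling to the depth of the control. Its median was 33.6 on chromosome 4, 34.1 on chromosome 13 and 34.1 on chromosome 18, against 33.6 over the other autosomes. In whole reads, before scaling, these medians were 61, 62, 62 and 61. The quartiles were 49.8 and 84 reads on chromosome 4, 48 and 85 on chromosome 13, and 49 and 86 on chromosome 18. The weakest summits had 23, 26 and 24 reads and the strongest 269, 301 and 269. The control background, at control depth, had a median of 8.10 reads on each of the 3 chromosomes and on the other autosomes together.

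The median fold was 3.83 on chromosome 4 (3.72 to 3.95), 3.92 on chromosome 13 (3.77 to 4.09) and 4.01 on chromosome 18 (3.84 to 4.16). The other autosomes together had 3.87 (3.84 to 3.90). All 3 intervals included that value, so no difference in the typical strength was resolved. A fold of at least 5 was reached by 25% of all 21361 peaks. On chromosome 4 it was reached by 177 peaks (24.05%, Wilson interval 21.1 to 27.3), on chromosome 13 by 131 (28.2%, 24.3 to 32.4) and on chromosome 18 by 116 (28.0%, 23.9 to 32.5), shares near the background. A fold of at least 10 was reached by 1.72% of all peaks, by 10 on chromosome 4 (1.36%, 0.740 to 2.48), by 10 on chromosome 13 (2.15%, 1.17 to 3.91) and by 4 on chromosome 18 (0.964%, 0.375 to 2.45). Each of these intervals included 1.72%.

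The share of broad sites was lower on chromosome 4 than over all peaks, as it was on chromosome 3. A width of at least 1000 bp was found for 3.22% of all peaks. On chromosome 4 it was found for 12 (1.63%, 0.935 to 2.83), on chromosome 13 for 12 (2.58%, 1.48 to 4.46) and on chromosome 18 for 11 (2.65%, 1.49 to 4.68). Of these 3 intervals only that of chromosome 4 lay below 3.22%. The other autosomes ran from 1.79% on chromosome 3 to 5.06% on chromosome 16. The interval of chromosome 3, 1.16 to 2.75, also lay below 3.22%.

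**Figure D4:**
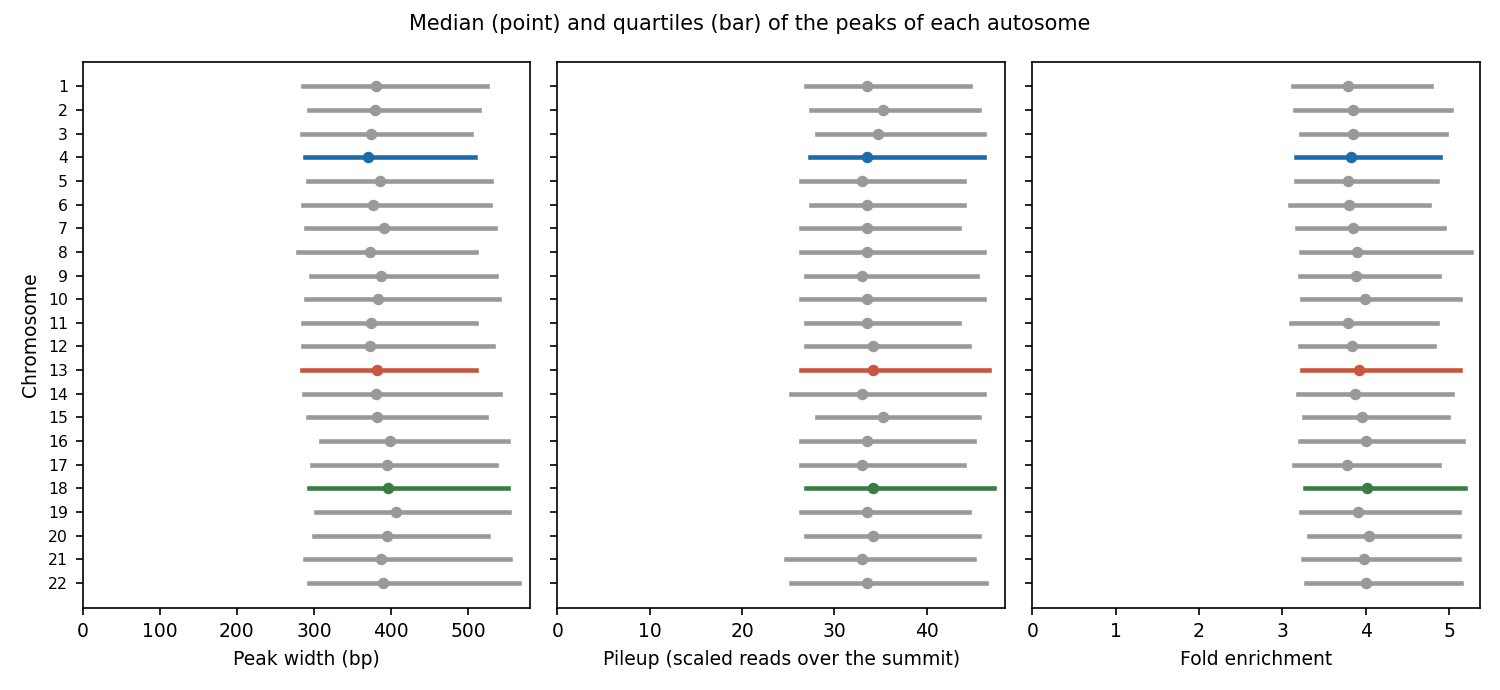
Width in bp, pileup in scaled reads and fold enrichment of the peaks of each autosome, with the median as a point and the quartiles as a bar. The coloured chromosomes 4, 13 and 18 have median folds of 3.83, 3.92 and 4.01 and lie among the other autosomes.

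Pooled over the 3 chromosomes, median folds in bins of 10 or more and of 2 to 9 peaks were close, and peaks alone in their bin had a higher one. Over the 3 chromosomes, the 809 peaks in bins of 10 or more had a median fold of 3.86 (3.78 to 4.00), and the 758 in bins of 2 to 9 had 3.90 (3.75 to 3.99). The 49 peaks that were alone in their bin had 4.39 (4.11 to 5.41). Their control background had a median of 7.20 reads, against 8.32 in the crowded bins, while the reads at the summit were 64 and 63. Whether the lower background accounts for the higher fold of lone peaks was not tested. None of the 49 reached a fold of 10, which only 1.49% of the 1616 peaks and 1.72% of the whole list did. Of the 24 sites that reached it, 15 lay in bins of 10 or more peaks, which held 50.06% of all 1616. Crowded bins had wider peaks, with a median of 396 bp (381 to 409) against 338 bp (322 to 370) for lone peaks. The chromosomes differed in this respect. On chromosome 13 the median fold was lower in bins of 10 or more (3.74, 3.59 to 3.91) than in bins of 2 to 9 (4.08, 3.90 to 4.37), whereas on chromosome 4 it was higher (3.96, 3.80 to 4.18, against 3.67, 3.52 to 3.84). On both chromosomes the intervals overlapped at their edges.

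The strongest sites were examined next, in the order of their fold on each chromosome. Reads at a summit are given before scaling and the background at control depth, so their plain ratio is not the fold. The fold is (pileup + 1) / (background + 1), with the pileup already scaled. On chromosome 4 the first was chr4:300242-301004, near the start, with 248 reads at the summit (exact Poisson 95% interval 218 to 281) over a background of 6.08 reads and a fold of 19.4. Its nearest neighbour was 77.8 kb away, and it belonged to no island. The second, chr4:4945386-4946218, had 269 reads (238 to 303) over 8.10 and a fold of 16.4. It had the most reads of any site on the chromosome, and its interval overlapped that of the first.

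The next pair of sites of chromosome 4 were close in fold. The peak chr4:5994292-5995000 had 167 reads over 5.62 and a fold of 14.0, and the peak chr4:10152397-10153479 had 201 reads over 7 and a fold of 14.0. The fifth, chr4:102711590-102712145, had 206 reads over 9 and a fold of 11.4. It was the first in the order that lay outside the crowded start of the chromosome. A further site with many reads, chr4:2836721-2837373, had 231 reads over a background of 13, which left a fold of 9.15 and rank 16.

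The widest peak of chromosome 4, chr4:109092638-109094400, spanned 1763 bp and was also the tenth by fold, with 168 reads and a fold of 10.0. The next 2 in width had lower folds. The peak chr4:2813630-2815252 spanned 1623 bp with 177 reads over 17.0 in the control and a fold of 5.47. The peak chr4:113205459-113207008 spanned 1550 bp with 81 reads and a fold of 4.56. Over all 736 peaks of chromosome 4, width and fold rose together (Spearman's rho 0.43, a description across peaks that share both libraries).

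On chromosome 13 the site of highest fold and the site of most reads were different. The peak chr13:114964115-114965242 had a fold of 14.3 from 79 reads (62.5 to 98.5) over a background of 2.12, which is the genome mean and the lowest that the caller uses. By reads it had rank 136 on the chromosome. The peak chr13:41019411-41020206 had 301 reads (268 to 337) over a background of 12, which gave a fold of 12.8 and rank 3. It had rank 8 by reads among all 21361 peaks. With fold intervals of 11.4 to 17.7 and 11.4 to 14.3, the order of these sites by fold was not resolved. These intervals carry the counting error of the ChIP reads only and hold the background fixed.

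The other leading sites of chromosome 13 included one in the sparse middle of the long arm. The peak chr13:80850457-80851066 had 153 reads over 5.40 and a fold of 13.3, in a bin with 5 peaks and 64.7 kb from its neighbour. The peak chr13:41163742-41164517 had 230 reads over 9.67 and a fold of 11.9. It lay in the same island of 14 peaks as the site with 301 reads. The peak chr13:114099740-114100958 had 218 reads over 10.0 and a fold of 10.996, in the largest island of the chromosome. The widest peaks, chr13:114063792-114065469 with 1678 bp, chr13:48877609-48879029 with 1421 bp and chr13:50698003-50699359 with 1357 bp, had folds of 4.29, 5.73 and 3.68.

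On chromosome 18 the strongest site was chr18:30352336-30353713. It had 234 reads (205 to 266) over a background of 6.07, a fold of 18.3, and with 1378 bp it was also the second widest of the chromosome. Its bin held 7 peaks and came after the 5.03 Mb stretch without peaks that ended at 29523426. By fold it had rank 12 in the whole list, and the first site of chromosome 4 had rank 7. The peak chr18:46475535-46476446 had 216 reads over 6.98 and a fold of 15.0, in the island of 22 peaks.

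The peak chr18:60085342-60086012 had the most reads of chromosome 18, 269 (238 to 303), over 12 in the control, a fold of 11.5. Its nearest neighbour was 104 kb away, just past the limit for an island. The peak chr18:77645189-77645623 followed with 150 reads over 7 and a fold of 10.4. The fifth, chr18:54745002-54745465, had 187 reads over 10.0 and a fold of 9.45. The widest peak, chr18:45456518-45457913, spanned 1396 bp with 75 reads and a fold of 4.13, and chr18:20811219-20812512 spanned 1294 bp with 101 reads and a fold of 5.66.

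**Figure D5:**
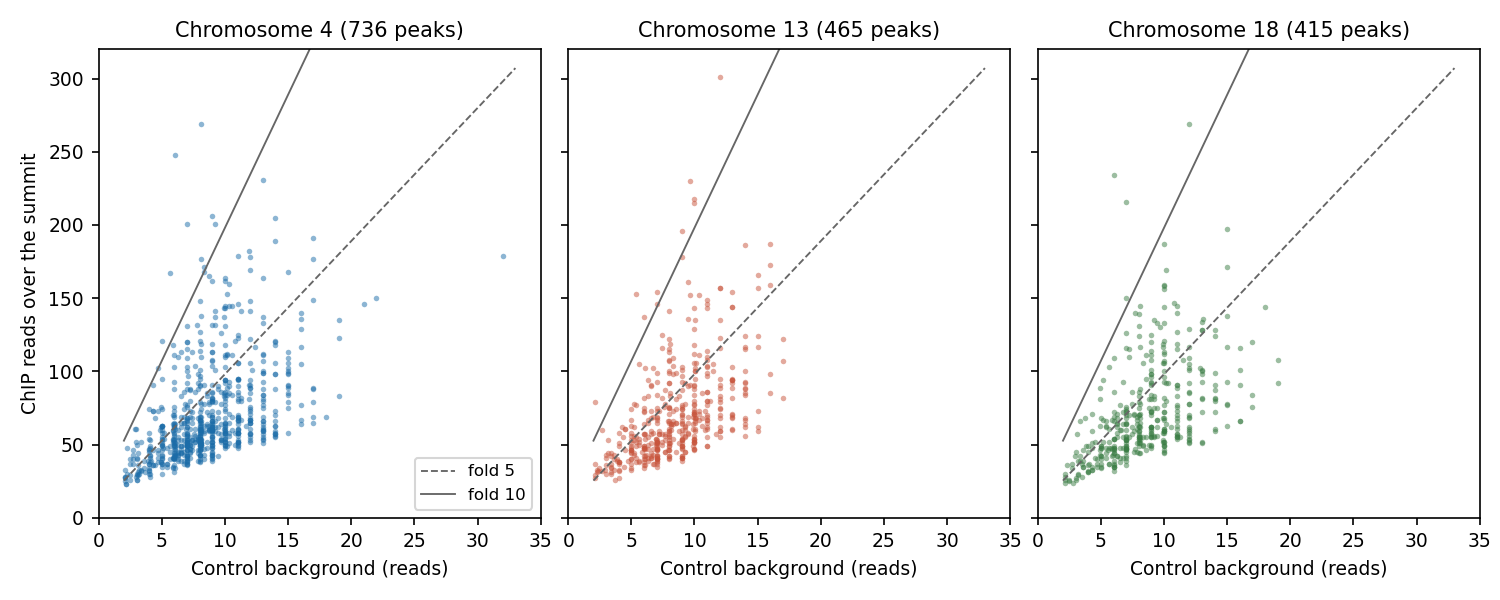
ChIP reads over the summit, before scaling, against the control background in reads at control depth, for every peak of chromosomes 4, 13 and 18. Lines mark a fold of 5 (dashed) and 10 (solid). Sites above the solid line number 10, 10 and 4, and the chromosome 13 peak with 79 reads over a background of 2.12 lies at its far left.

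Islands and strong sites overlapped in part. Of the sites with a fold of at least 10, 8 of 10 on chromosome 4, 8 of 10 on chromosome 13 and 2 of 4 on chromosome 18 lay in islands. Of all peaks of these chromosomes, 47.4%, 51.0% and 56.6% did. The median fold inside and outside islands was 3.83 and 3.83 on chromosome 4, 3.74 and 4.09 on chromosome 13, and 3.97 and 4.06 on chromosome 18. The intervals of chromosome 13 were 3.64 to 3.93 inside and 3.92 to 4.37 outside and overlapped only at their edges. Median reads were 65 inside and 61 outside on this chromosome, and the median control background was 8.77 and 8. The part of the background in this difference was not tested. Among the 100 sites of highest fold in the whole list, 4 lay on chromosome 4, 3 on chromosome 13 and 2 on chromosome 18. These chromosomes held 3.45%, 2.18% and 1.94% of all peaks, so the counts were near their shares.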

How the data were processed

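PAX5 ChIP and input were each 1 sample of NALM6 cells. The submitters' processing notes name BWA and the build hg19. MACS2 version 2.1.1.20160309 called peaks on a pooled ChIP alignment (46190180 tags) against a combined control (25416858 tags), with tags of 50 bp extended to 225 bp and a q-value threshold of 0.05, per the file headers. The deposited table gives for each peak a pileup signal, scaled to the control depth, a fold enrichment ratio, and −log10 p and −log10 q values, all the authors' own. A pool hides the spread between its libraries. Positions count from 1.

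Pileup was divided by the scale of 0.550 to give whole reads (100% of the peaks within 0.006), and the background was taken as (pileup + 1) / fold − 1. Bins, stretches and islands used summits. Intervals are 95% Poisson for counts, Wilson for shares and order-statistic for medians, treat peaks as independent and cover counting error only. The fold interval of a single site takes the Poisson interval of its ChIP reads and leaves out the error of the control. No hypothesis test was made. Named for each chromosome are the 5 sites of highest fold, 3 of highest pileup and 3 widest, and the 3 leading bins, islands and stretches. Members and definitions were chosen with earlier results of these data known. The planned list of 59 genes and the motif search need hg19 annotation and sequence, not used here. A list of other thresholds and bin sizes was tried as alternatives. Computations ran in Python 3.11.15 (scipy 1.17.1, pandas 2.3.3, numpy 2.4.6), figures in matplotlib 3.10.9, and the functions were tested on simulated peaks.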

Additional observations from a re-analysis of the deposited data

How the results depend on the processing

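All 1616 peaks remained in the cleaned list, and 1584 had a −log10 q of at least 2. Merging peaks within 500 bp left 1507 and gave a density of 4.14 per Mb, a median width of 392 bp and 45.3% of peaks in islands. The island share of 50.8% was 32.5% at a limit of 50 kb and 70.4% at 200 kb. The empty share of 29.2% was 46.2% with bins of 500 kb and 14.1% with bins of 2 Mb, and the bins holding 50% of the peaks changed from 14.2% to 10.96% with bins of 500 kb and to 17.9% with bins of 2 Mb. These shifts follow from the definitions. In every alternative run, the 3 chromosomes together had a lower density, a lower island share and a higher empty share than the other autosomes. Among the 3, the order was not stable: chromosome 18 had fewer empty bins than 13 with bins of 2 Mb (10.3% against 12.2%), and chromosome 13 a lower island share than 4 at a −log10 q of at least 2 (46.5% against 46.7%). Of the 15 sites of highest fold, 10 were also among the 5 of each chromosome by pileup and 12 by −log10 q. The 2 alternatives for genes and motifs were not run, since hg19 annotation and sequence were not used here. With 1 pooled ChIP, depth limits the order of neighbouring ranks.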

Other observations

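The weakest control backgrounds on these chromosomes were at the genome mean of 2.12 reads, where 12 of the 1616 peaks stood, 5 on chromosome 4, 3 on chromosome 13 and 4 on chromosome 18. The highest was 32.0 reads, on chromosome 4, against 17.0 on chromosome 13 and 19 on chromosome 18. Across the 1616 peaks, which share both libraries, width and reads at the summit rose together (Spearman's rho 0.58), as did reads and background (0.61), and fold and background were inversely related (-0.33). Over the 19305 peaks of the other autosomes the same values were 0.60, 0.61 and -0.35. They are descriptions across peaks, and pileup and background enter the fold by construction.

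In segments of 10 Mb, the counts on chromosome 4 ran from 3 peaks, between 90000001 and 100000000, to 169 in the first segment. The segment from 60000001 to 70000000 had 5. On chromosome 18 the range was narrower, from 27 peaks between 60000001 and 70000000 to 76 between 40000001 and 50000000. Chromosome 13 had 9 peaks between 60000001 and 70000000, and they had a median of 72 reads.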
